A study of Mus musculus with 4 samples.

Results

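Unnamed transcripts higher in inhibitory nuclei are the rows of the expression table that carry only a provisional symbol, either Gm with a number or a name ending in Rik, and that stood well above the excitatory level in both inhibitory libraries. A row was a member when the smaller of its 2 inhibitory values was at least 5 TPM (a length-scaled level that sums to the same total in each library) and at least 3 times the larger of its 2 excitatory values. The rule found 163 members among 30623 unnamed rows and 55487 rows in all. Of these, 148 had Gm symbols and 15 had Rik symbols. RNA was measured in nuclei sorted by flow cytometry from the brain of adult wild-type (WT) mice, with the olfactory bulb left out. The excitatory and the inhibitory class had 2 libraries each, and no treatment is given. All were taken as batch 1, and the sample titles name no batch. The labels name neither the sorting marker nor the number of animals behind a library, so the p-values below rest on library-to-library spread alone, which may be technical.

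Provisional symbols are given to transcripts found by annotation projects before any function is known. Many are long noncoding RNAs, antisense RNAs, pseudogenes or short single-exon models, and nuclear RNA made without poly(A) selection also holds unspliced introns of the genes around them. In the brain, long noncoding RNAs are known for strong differences between neuron types, and several are transcribed beside developmental regulators of GABAergic neurons, the cells that release the inhibitory transmitter GABA. The study's title concerns the binding of EGR1, an activity-dependent transcription factor, in excitatory neurons. Nuclei of both classes were compared here for transcripts and for the genes beside them.

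Most genes on the identity lists differed in the direction that the labels name, with exceptions on the excitatory list. All 14 tested genes on an inhibitory identity list were called higher in inhibitory nuclei, and 11 of 13 on an excitatory list were called higher in excitatory nuclei. Of the other two, Neurod1, a neuronal differentiation factor, was not called (13.8 and 14.3 against 16.8 and 15 TPM, limma adjusted p = 0.59). The other was Slc17a6, a vesicular glutamate transporter of subcortical neurons, at 22.4 and 20.3 TPM in excitatory and 88.0 and 78.4 TPM in inhibitory libraries (log2 difference 1.91 ± 0.13 SE, limma adjusted p = 0.00176). Lists of regional neurons also moved with the inhibitory libraries: 13 of 15 striatal projection, 6 of 8 thalamic, 6 of 8 Purkinje, 6 of 9 cerebellar granule, 8 of 12 midbrain and hindbrain and 9 of 9 monoamine and acetylcholine genes were called higher there. The summed striatal level was 611 and 652 TPM in excitatory and 1792 and 1843 TPM in inhibitory libraries, and the summed thalamic level was 219 and 226 against 421 and 541 TPM. The Purkinje sums were 446 and 458 against 877 and 977 TPM, the granule sums 143 and 140.0 against 259 and 249.9 TPM, the midbrain and hindbrain sums 10.8 and 7.44 against 62.4 and 61 TPM, and the monoamine and acetylcholine sums 22.7 and 19.3 against 77.4 and 81.1 TPM. Of 13 interneuron subclass genes, 8 were called inhibitory and 2, Cck and Lamp5, excitatory. Of the 31 tested genes on 5 non-neuronal lists, 0 were called inhibitory and 1 (Slc1a2, an astrocyte glutamate transporter) was called excitatory by limma. No marker of any of these lists was at 0 in all libraries. The part of regional make-up in the member levels was not tested, and in bulk nuclei a larger share of a cell type and more RNA per nucleus cannot be told apart.

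The rule itself chose the members by their inhibitory and excitatory values, so those values are a description with no test. Members made up 2.95% of the 5519 unnamed rows at or above 5 TPM in both inhibitory libraries, and the same thresholds held for 237 of 11990 named genes at that floor (1.98%). The mirrored rule found 85 unnamed rows higher in excitatory nuclei. All 163 members passed the filter on low values, and all lay in the called inhibitory set of the fit, where 6.62% of 26055 genes and 5.86% of 10522 unnamed rows were called in that direction. Both inhibitory libraries stood above both excitatory ones in 33.3% of genes and 30% of unnamed rows tested, and in every member by the rule; nothing is read from these counts.

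The median member averaged 13.4 TPM in inhibitory libraries, with a range of 5.21 to 90.3 TPM, and 2.05 TPM in excitatory libraries, with a range of 0 to 23.5 TPM. Their summed level was 573 and 596 TPM in the excitatory and 3177 and 3295 TPM in the inhibitory libraries. The ratio of the smaller inhibitory to the larger excitatory value had a median of 4.4 over the 162 members where it was finite. It lay between 3 and 4 for 68 members, between 4 and 5 for 31, between 5 and 10 for 50, and at 10 or above for 13. The median log2 difference was 2.15, beside 0.07 over all genes tested. The 2 inhibitory libraries were close for most members: the larger value was less than 1.25 times the smaller in 111 members and more than 1.5 times in 17, up to 2.21 times for Gm16148.

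**Figure D1:**
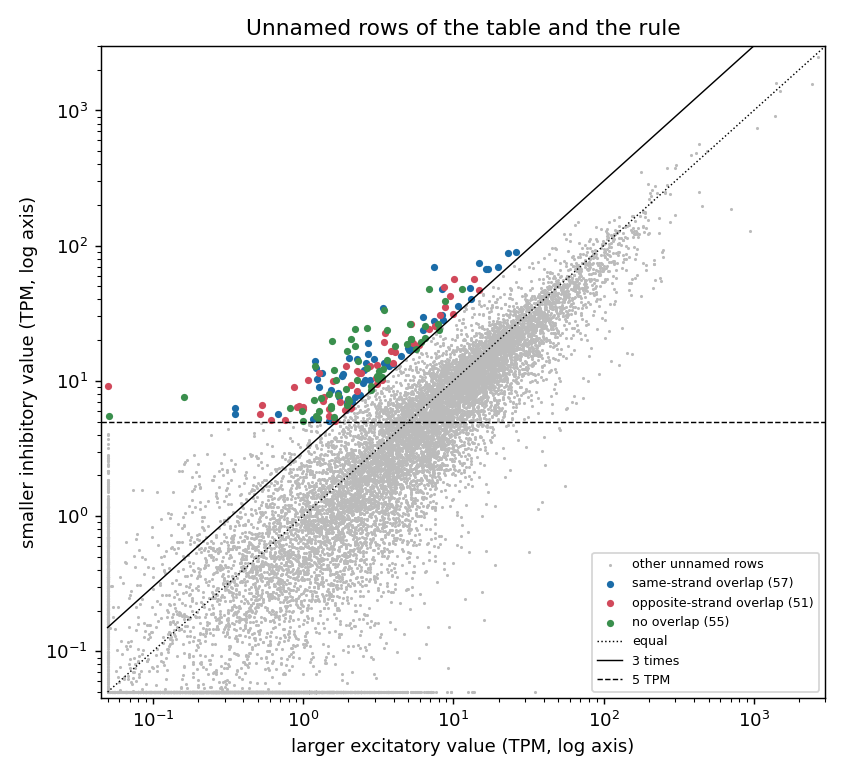
Each point is an unnamed row, with the larger excitatory value on the x axis and the smaller inhibitory value on the y axis (TPM, both log axes, values under 0.05 drawn at 0.05). Coloured points are the 163 members, by whether they overlap a protein-coding gene on the same strand (57), on the opposite strand (51) or not at all (55); they fill the corner above the 5 TPM line and the 3-fold line by construction.

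Members near the lines show how sharp the choice was. Just inside the 3-fold line were 4930488N15Rik at a ratio of 3.01, Gm28410 at 3.02 and Gm47385 at 3.03, and just outside were Gm44872 and Gm48753, both at 2.98, and Gm18961 at 2.97. Just inside the floor were Gm49314, whose smaller inhibitory value was 5.04 TPM, Gm26426 at 5.05 TPM and Gm43685 at 5.08 TPM. Just outside it were Gm44413 at 4.97 TPM, Gm3164 at 4.94 TPM and Gm27199 at 4.92 TPM.

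A rule applied to 1 replicate of each class could be read in the other replicate, which it had not used. Chosen on replicate 1 alone, 375 unnamed rows met the thresholds, and in replicate 2, 181 of them (48.3%) met the same thresholds and 330 (88.0%) were higher in the inhibitory library. The pool of 5943 unnamed rows at the floor in inhibitory replicate 1 met them at 5.42% and was higher in inhibitory replicate 2 at 53.9%. The median log2 difference of the chosen rows was 1.81 in the replicate that chose them and 1.40 in the other, against 0.05 in the pool. Chosen on replicate 2, 412 rows gave 181 (43.9%) and 370 (89.8%) in replicate 1, against 4.82% and 58.4% of 6181 rows in the pool. The median there was 1.84 where chosen, 1.29 where read and 0.12 in the pool. Both readings share the same 181 rows, which hold all 163 members, and the pool includes the chosen rows, so the second is no separate check of the first. The chosen rows had a smaller median in the replicate that was not used. The 163 members were chosen on both replicates, so neither reading is a test of them. Whether the replicates are separate animals is not given.

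Except for Gm14204, the 12 most abundant members lay inside introns of protein-coding genes. Gm47342, a single-exon model in an intron of Grip1, a scaffold of glutamate receptors, was at 21.0 and 25.9 TPM in excitatory and 90.7 and 89.9 TPM in inhibitory libraries. Gm49702, in Adcy5, an adenylyl cyclase abundant in striatal projection neurons, was at 21.8 and 23.0 against 87.6 and 92.3 TPM. These 2 rows were the highest of all members in the inhibitory libraries and also the highest in the excitatory ones.

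Gm48261 and Gm48259 lie in Adarb2, a relative of the RNA-editing deaminases that marks some interneurons. Gm48261 was at 14.8 and 12.6 against 74.3 and 76.7 TPM, and Gm48259 was at 9.40 and 16.5 against 67.0 and 76.7 TPM. Gm47024, again in Grip1, was at 16.2 and 19.8 against 69.8 and 78.2 TPM. The rule sets the classes apart in each of the 3, and the excitatory replicates of Gm48259 were the farthest apart.

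Gm16076, inside Erbb4, a neuregulin receptor of interneurons, was at 7.28 and 7.38 against 72.3 and 70.0 TPM. Gm45461, inside Spock3, an extracellular proteoglycan, was at 16.2 and 17.1 against 68.7 and 67.1 TPM. Gm44075, a pseudogene, was at 8.85 and 10.1 against 56.3 and 67.8 TPM. The 2 libraries of each class differed less for Gm16076 and Gm45461 than for Gm44075.

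Gm10357, a pseudogene in Adarb2, was at 7.52 and 13.8 against 59.5 and 56.3 TPM. Gm14204, which starts beside the GABA transporter gene Slc32a1, was at 6.91 and 5.61 against 64.7 and 47.8 TPM. Gm47341, in Grip1, was at 11 and 12.8 against 48.4 and 59.4 TPM. Gm35736, a pseudogene in Nxph1, which encodes a secreted ligand of neurexins, was at 8.47 and 6.06 against 47.6 and 53.5 TPM. In the excitatory libraries all 12 were listed above 0, from 5.61 to 25.9 TPM. The inhibitory identity list summed to 153 and 135 TPM in excitatory and 866 and 856 TPM in inhibitory libraries, and the part of inhibitory nuclei in the excitatory values of the members was not tested.

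**Figure D2:**
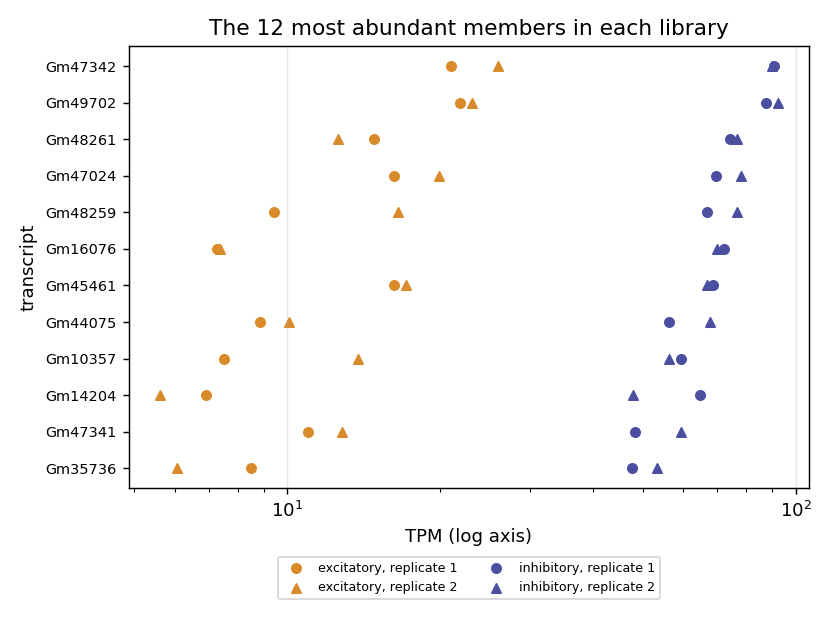
The 12 members with the highest mean inhibitory level, with TPM on a log x axis, 1 row per transcript, excitatory libraries in orange and inhibitory libraries in blue, circles for replicate 1 and triangles for replicate 2. The groups of each row are apart by the rule that chose the members. Gm47342 is highest at 90.7 and 89.9 TPM in inhibitory libraries.

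The largest ratios came from rows nearly silent in excitatory nuclei. Gm16617, antisense to Arhgef40, which encodes a guanine nucleotide exchange factor, was the 1 member listed at 0 in both excitatory libraries and was at 9.21 and 9.48 TPM in the inhibitory ones. Gm15075, an X-linked pseudogene, was at 0 and 0.0512 against 5.90 and 5.50 TPM, a ratio of 107. Gm17091, a pseudogene on chromosome 5, was at 0 and 0.161 against 7.66 and 7.58 TPM, a ratio of 47.2. In all, 15 members did not reach 1 TPM in either excitatory library and 7 were listed at 0 in 1 of them, so their ratios rest on very low values. At the other end, 44 members reached 5 TPM in an excitatory library.

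High ratios also belonged to Gm49873 (17.9), 4930584E12Rik (16.1), Gm37624 (12.7), Gm43744 (12.5), Gm43287 (11.8), Gm17141 (11) and 6330411D24Rik (10.9). The members Gm36723 (10.8), Gm48837 (10.4), Gm37834 (10.2) and Gm11799 (10.1), chosen after their values were seen, complete those at 10 or above. 4930584E12Rik lies in Amotl1, an angiomotin family gene, and Gm17141 lies antisense to Cacna2d2, an auxiliary subunit of calcium channels. Gm43287 and Gm43744 both lie in Synpo2, which encodes an actin-binding protein. Gm37624 lies within the span of 6330411D24Rik on chromosome 4, on the other strand. 6330411D24Rik was at 2.21 and 1.03 against 24.0 and 31.0 TPM and Gm37624 at 1.56 and 0.797 against 19.8 and 24.1 TPM. Their nearest protein-coding gene, Prdm2, a histone methyltransferase gene, was at 23.4 and 22.7 against 22.1 and 24.2 TPM (log2 difference 0.01 ± 0.14 SE, limma adjusted p = 0.985, near 0 under each scaling).

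By annotation class, 51 members were TEC models (a GENCODE class of mostly single-exon transcripts that await experimental support), 39 pseudogenes, 23 lincRNAs, 22 antisense RNAs, 17 small RNA genes, 10 processed transcripts and 1 a sense intronic RNA. None was annotated as protein-coding, against 6.87% of the 5356 other unnamed rows at the same floor. LincRNAs made up 14.1% of members and 6.25% of the other rows, and small RNA genes 10.4% and 16.5%. The exons of a member summed to a median of 893 bases, against 1032 in the other rows, and 62.6% against 65.5% had 1 exon block. Median inhibitory levels ran from 9.51 TPM for antisense RNAs through 11.3 TPM for pseudogenes to 15.0 TPM for TEC models and 17.5 TPM for lincRNAs, with ranges that overlap. These shares are given without a test, and several of the lincRNA members lie in 1 group on chromosome 8.

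Positions were read from GENCODE M21 on mm10. Of the 163 members, 108 (66.3%) overlapped a protein-coding gene, 57 on the same strand and 51 on the opposite strand, and 98 lay wholly inside it. The other unnamed rows overlapped a protein-coding gene in 77.5% of cases. In 91 of the 108 members the overlap held no exon base of the protein-coding gene, so they lay in introns, and in 17 it did hold exon bases. Among the 55 members without such overlap, 29 were farther than 100 kb from any protein-coding gene, 17.8% of all members against 5.92% of other rows. Chromosome 8 carried 26 members (16%), against 5.02% of other rows. A single group of 12 neighbouring members on chromosome 8, described below, counts in both shares. Groups of 5 members at Spock3 and Tll1 and of 4 in Zfhx3 also count in the chromosome 8 share. The members of these groups are therefore not separate loci.

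For each member a partner was taken: the protein-coding gene that it overlaps most, otherwise the nearest one. The rule did not use the values of partners with a full name. C030005K15Rik, D830030K20Rik, Gm5152, Gm10330, Gm2956, Gm7233 and Gm8104 are partners that are themselves unnamed rows, which the rule screened and did not keep. Of them, C030005K15Rik and Gm8104 were called inhibitory. The values of all partners come from the same 4 libraries and the same contrast. There were 100 distinct partners, 97 of them tested, and 26 had more than 1 member. Of the 97, 71 (73.2%) were called higher in inhibitory nuclei, 2 higher in excitatory nuclei and 24 neither, by limma at an adjusted p under 0.05. Over all 14602 protein-coding genes tested, 7.07% were called inhibitory and 5.88% excitatory. The median log2 difference of the partners was 1.53, against 0.08 for all protein-coding genes. In 86 partners both inhibitory libraries were above both excitatory ones, which held for 36.3% of protein-coding genes. With any 1 of the 4 libraries left out, 0 genes and 0 partners were called, with a smallest adjusted p between 0.0545 and 0.0664 across the fits; 74 to 77 of the 97 partners were then higher in inhibitory nuclei at an unadjusted p under 0.05, and 5311 to 5812 genes had such a p in either direction.

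The partners were then split by the position of the member. Of 67 partners that overlap a member, 59 (88.1%) were called inhibitory, 0 were called excitatory by limma and 8 were not called, with a median log2 difference of 1.70. Where the overlap held no exon base of the partner, 47 of 53 (88.7%) were called inhibitory. On the same strand 31 of 33 and on the opposite strand 38 of 44 were called inhibitory. Hosts with members on both strands, such as Grip1, Ptprm and Adarb2, count in both of these strand sets. Of 31 tested partners without overlap, 13 (41.9%) were called inhibitory, 2 excitatory and 16 neither, with a median of 0.92. Partners farther than 100 kb gave 4 of 11. Htr2c counts in both groups, since some of its members overlap it and 1 does not.

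The partners of other unnamed rows at the same floor were called inhibitory in 258 of 2851 cases (9.05%), in 227 of 2376 (9.55%) with overlap and in 49 of 648 (7.56%) without. For the 85 unnamed rows higher in excitatory nuclei, 34 of 54 tested partners were called excitatory and 1 inhibitory. Reads of an unspliced host and of a separate transcript inside its intron cannot be told apart on the same strand. The library kit keeps strand, but whether the counting used it is not given, so values on the opposite strand are uncertain as well.

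**Figure D3:**
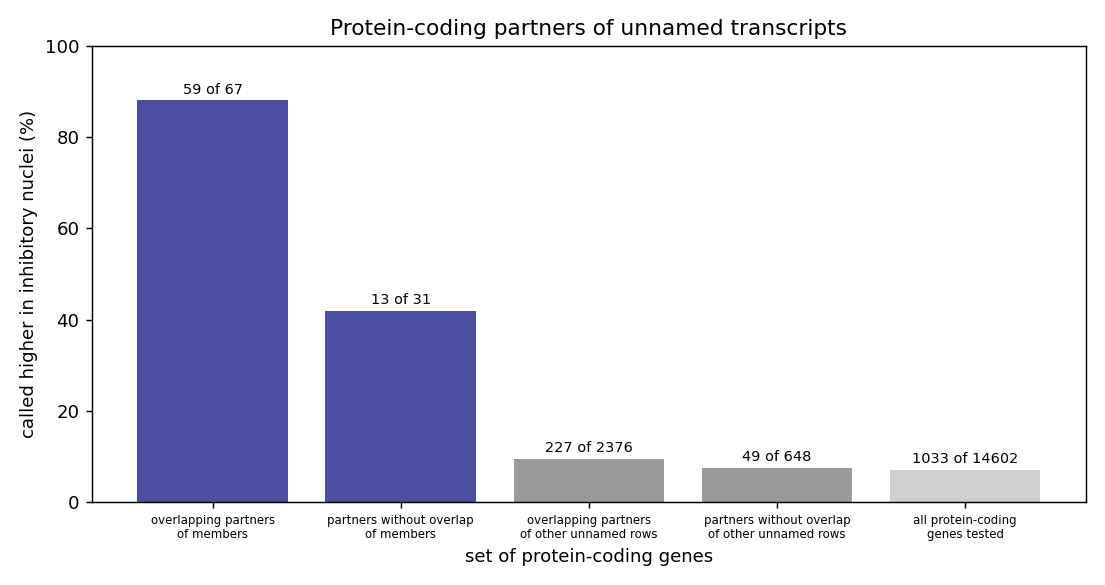
Bars give the percent of tested protein-coding genes called higher in inhibitory nuclei by limma, with the counts above each bar; the x axis lists 5 sets of genes and the y axis starts at 0. Overlapping partners of members reach 59 of 67 and partners without overlap 13 of 31, while partners of other unnamed rows are at 9.55 and 7.56% and all protein-coding genes at 7.07%.

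The partners with the largest differences included receptor, synaptic ligand and transcription factor genes. Ankrd55, an ankyrin repeat gene with Gm48837 antisense to it, was at 4.28 and 2.21 TPM in excitatory and 34.1 and 41.2 TPM in inhibitory libraries (log2 difference 3.22 ± 0.29 SE, limma adjusted p = 0.00319). Erbb4 was at 9.30 and 8.01 against 82.7 and 74.2 TPM (3.04 ± 0.15, limma adjusted p = 0.00149). Dlx6, a homeobox regulator of GABAergic neurons, was at 1.30 and 1.86 against 14.7 and 22.9 TPM (2.92 ± 0.30, limma adjusted p = 0.00464). Next came Cacna2d2 at a log2 difference of 2.86, Nxph1 at 2.83, Slc32a1 at 2.77, Zfhx3 at 2.71, Rbms3, an RNA-binding protein gene, at 2.68, and Synpo2 and the receptor tyrosine kinase gene Alk, both at 2.55. In each of these 10 genes both inhibitory libraries were above both excitatory ones.

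Some partners stood on the marker lists. They included Dlx6, Erbb4 and Slc32a1 on the inhibitory identity list, Adcy5, Ppp1r1b and Rarb on the striatal list, Car8 on the Purkinje list, Adarb2 and Reln on the interneuron list and Plekhg1 and Slc17a6 on the thalamic list. All of these partners were called inhibitory. Over the whole lists, so were 14 of 14 tested genes for inhibitory identity and 13 of 15 for striatal projection. The Purkinje list gave 6 of 8, the interneuron list 8 of 13 and the thalamic list 6 of 8. Slc17a6 also stood on the excitatory identity list, where 11 of 13 genes were called excitatory, so it went against that list. Gm45072, inside Slc17a6, was at 1.26 and 1.16 TPM against 5.43 and 5.22 TPM, a gap that the rule requires of a member.

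The 2 partners called higher in excitatory nuclei were neighbours without overlap. Mef2c, a transcription factor of cortical excitatory neurons, was at 397 and 452 TPM against 165 and 151 TPM (log2 difference -1.41 ± 0.11 SE, limma adjusted p = 0.00276). Its neighbour Gm48067, a pseudogene, was at 1.97 and 1.13 against 8.32 and 6.61 TPM. Klf10, a zinc finger transcription factor, was at 25.2 and 27.0 against 12.2 and 7.01 TPM (-1.39 ± 0.26, limma adjusted p = 0.0253; 0.0786 with no filter on low values and 0.0585 with no variance trend). Its neighbour Gm49314 was at 0.465 and 1.00 against 5.6 and 5.04 TPM. In both pairs the unnamed row and the coding gene thus differed in opposite directions.

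Over the 108 overlapping members the median log2 difference was 2.15 for the members and 1.83 for their hosts, 78 members were above their host, and 56 lay within 0.5 of it. Since the members were chosen for a large ratio and the hosts were not, the order of the medians is not a result. Pearson's r between member and host was 0.394 and Spearman's coefficient 0.432 across the 108 members, as a description over genes that share libraries and in part share hosts. The length-scaled inhibitory level of a member was a median of 0.309 times that of its host, 0.349 on the same strand and 0.257 on the opposite strand. Over 51 members without overlap and with a tested partner, the medians were 2.10 and 0.46.

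**Figure D4:**
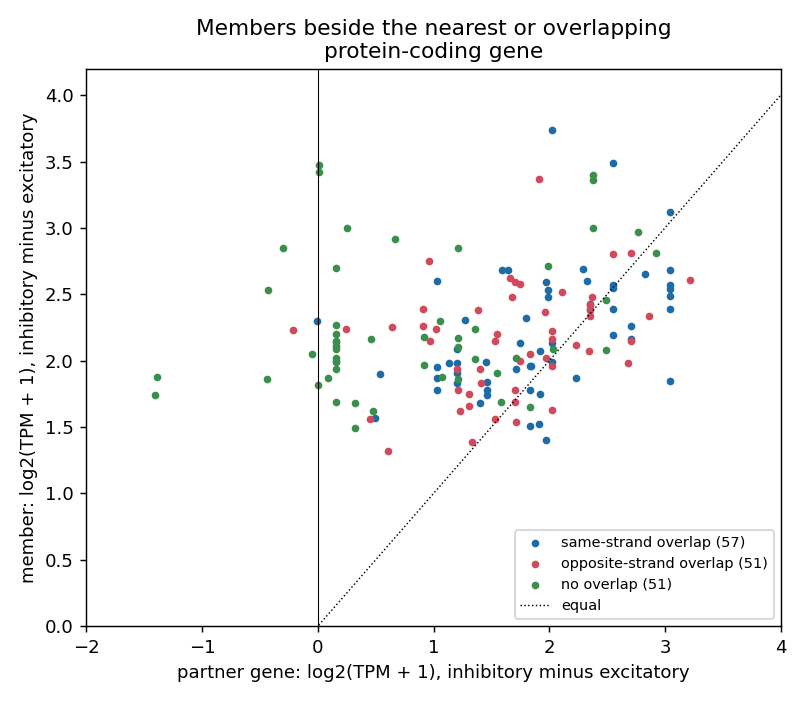
Each point is a member with a tested partner; the x axis is the partner's and the y axis the member's difference in log2(TPM + 1), inhibitory minus excitatory, coloured by position. Overlapping members (57 same strand, 51 opposite strand) lie mostly to the right of 0 on the x axis, and the 51 without overlap spread around lower partner values, including a column at 0.16 that is the Tenm3 neighbourhood on chromosome 8.

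Several hosts held many members. Erbb4 held 7, all on its own strand, with midpoints spread from 8.73 kb to 992 kb from its start. Gm16076 was the highest of them at a mean inhibitory level of 71.2 TPM, followed by Gm37769 at 31.3 TPM, Gm15670 at 19.3, Gm37735 at 13.9, Gm37100 at 12.4, Gm19335 at 11.8 and Gm37061 at 5.94 TPM. Their log2 differences ran from 1.85 for Gm37061 to 3.12 for Gm16076, around the 3.04 of Erbb4 itself or below it.

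Grip1 held 5 members with log2 differences of 1.83 to 2.09, while Grip1 itself was at 41.0 and 40.1 against 82.6 and 108 TPM (1.20 ± 0.15 SE, limma adjusted p = 0.00701). The 5 members ranged from 37.8 to 90.3 TPM in mean inhibitory level. The midpoints of all 5 were within 201 kb of the start of the gene. Ptprm, a receptor tyrosine phosphatase, also held 5, with differences of 1.63 to 2.16 beside 2.02 ± 0.13 for the gene (30.4 and 26 against 111 and 123 TPM, limma adjusted p = 0.00158).

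The midpoints of the 4 members in Adarb2 lay between 76.1 and 94.4 kb from its start. Their log2 differences were 2.38 to 2.43, beside 2.35 ± 0.11 for Adarb2 (44.2 and 39.1 against 206 and 227 TPM, limma adjusted p = 0.00149). These 4 and their host thus differed by nearly the same factor, on both strands. Spock3 (4 members), Synpo2 (4), Zfhx3 (4), Sfmbt2 (4) and Kctd8 (3), which encodes an auxiliary subunit of GABA-B receptors, were called inhibitory too. Spock3 was at 40.8 and 40.2 against 151 and 142 TPM.

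Of the members tied to regional and GABAergic regulators, Gm14204 was closest to a start site. It runs on the minus strand of chromosome 2 and starts 44 bases from the start of Slc32a1, the vesicular GABA transporter that loads GABA into synaptic vesicles, on the other strand. Slc32a1 was at 7.48 and 4.38 TPM in excitatory and 51.7 and 39.0 TPM in inhibitory libraries, 7.66 times higher (log2 difference 2.77 ± 0.27 SE, limma adjusted p = 0.00402). In both genes inhibitory replicate 1 was above replicate 2. The window of 300 bases around the Gm14204 start, chr2:158610674-158610973 on the minus strand (RefSeq, GRCm38.p6), shares 134 bases with the matching window of Slc32a1, and is printed because both genes start from it. Capitals mark the 1 match to GCGNGGGCG (the EGR1 motif, searched on both strands), which begins 174 bases before the Gm14204 start. The match lies outside the 134 shared bases, since the Slc32a1 window ends at 158610807. For Slc32a1 it lies downstream of the start, which is at 158610767.

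Gm14204: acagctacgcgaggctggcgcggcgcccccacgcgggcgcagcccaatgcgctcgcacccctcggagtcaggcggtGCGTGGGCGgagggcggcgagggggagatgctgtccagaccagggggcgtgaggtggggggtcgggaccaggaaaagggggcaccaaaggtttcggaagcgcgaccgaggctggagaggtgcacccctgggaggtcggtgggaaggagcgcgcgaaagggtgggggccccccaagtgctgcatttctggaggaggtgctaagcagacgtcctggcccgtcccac

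A match to these letters is a description of the sequence, not a bound site. RefSeq gave a window for 25 members, but 12 of these windows lie over 500 bases from the member's start in GENCODE, up to 61215 bases, and are not counted here; the other 13 lie within 62 bases of it, a split made after these distances were seen. Both strands were read for each motif, and no motif searched contains another. GCGNGGGCG was found in 1 of the 13 (7.69%) and in 5.55% of 32851 RefSeq promoters. TAATTA, the homeodomain core, was in 1 of 13 and 5.29% of all, TATAAA in 1 of 13 and 13.6%, and the E-box CACGTG in 0 of 13 and 7.15%. The 13 windows held a median of 6 CG dinucleotides and 51% GC, against 7 and 52.7% in all.

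Zfhx3, a homeobox and zinc finger transcription factor, was at 4.21 and 1.90 against 22.5 and 26.4 TPM (log2 difference 2.71 ± 0.32 SE, limma adjusted p = 0.00644) and held Gm39244, Gm38042, Gm38318 and Gm20686. Gm39244 was the highest of these, at 3.53 and 1.53 against 22.6 and 22.9 TPM. Meis1, a homeobox factor, was at 9.25 and 6.64 against 38.4 and 42.9 TPM (2.23 ± 0.20, limma adjusted p = 0.00319) and held 2610001A08Rik and, antisense and partly over an exon, Gm16141. Ebf1, a transcription factor of striatal neurons, was at 4.02 and 2.83 against 14.9 and 21.4 TPM (2.11 ± 0.28, limma adjusted p = 0.00844), with Gm12158 antisense to it at 1.46 and 1.92 against 15.8 and 13.0 TPM. On the whole list of regional and GABAergic genes, 36 of 54 tested were called inhibitory, 2 (Nr2f1 and Prdm8) excitatory and 16 neither.

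Of the 55 members without a protein-coding overlap, 8 overlapped a named noncoding gene. Sox2ot, the long noncoding RNA that spans the neural factor gene Sox2, was at 18.6 and 23.1 against 84.6 and 83.1 TPM (log2 difference 1.97 ± 0.14 SE, limma adjusted p = 0.00212). It was overlapped by 5 members, 4 of them on the opposite strand, with Gm38505 at 1.30 and 2.10 against 20.3 and 20.4 TPM and Gm34599 at 2.22 and 1.19 against 18 and 18.4 TPM. Sox2 itself was at 7.61 and 5.87 against 17.4 and 16.3 TPM (1.21 ± 0.21, limma adjusted p = 0.0201).

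Gm44094 lies inside Dlx6os1, the antisense RNA of the Dlx6 locus, on its strand. Gm44094 was at 0.488 and 1.61 against 12.0 and 13.7 TPM, and Dlx6os1 at 6.85 and 7.83 against 72.6 and 74.4 TPM (log2 difference 3.16, limma adjusted p = 0.00146). Gm45560 lies inside Sox1ot, which was at 1.02 and 0.994 against 7.58 and 8.30 TPM (2.15, limma adjusted p = 0.00709). On the list of named long noncoding RNAs, 7 of 22 tested were called inhibitory, among them Rmst, Lhx1os and Dlx1as beside Sox2ot, and 2, Miat and Pantr1, excitatory.

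Members were grouped along chromosomes when gaps were at most 1 Mb. There were 94 groups, of which 65 held a single member and 14 held 3 or more, with 68 members in those 14. The largest held 12 members over 1.87 Mb of chromosome 8 (chr8:49044280-50916997, mm10), in which the table listed 17 rows and no protein-coding gene. Of the 17 rows, 15 were called inhibitory, the 12 members among them by the rule's own contrast. Of the 5 rows that were not members, 3 were called: Gm45829, Gm45832 and Gm45455. Gm45455 lies within the span of the member Gm45341 on the same strand. Some members also lie within the span of another on the same strand, as Gm45696 in 4930555F03Rik and Gm45259 in Gm2516. Such rows may share reads, so the rows are not all separate transcripts. The summed level of the 12 members was 46.1 to 56.5 TPM in excitatory and 247 to 263 TPM in inhibitory libraries.

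Within the group, C130073E24Rik was highest, at 9.95 and 11.4 against 47.7 and 49.9 TPM. 4930555F03Rik was at 6.89 and 7.90 against 26.2 and 37.0 TPM, and Gm45321 at 5.35 and 6.51 against 25.4 and 27.6 TPM. Gm2516 was at 3.62 and 2.64 against 20.9 and 14.2 TPM. The lowest was Gm45830, at 0.694 and 1.18 against 7.74 and 7.22 TPM. Rows on both strands were among the 12. Of the nearest coding genes, Tenm3, a teneurin adhesion protein gene 200.3 kb before the group, was at 58.6 and 58.9 against 66.7 and 64.7 TPM (log2 difference 0.16 ± 0.10 SE, limma adjusted p = 0.378). Aga, a lysosomal enzyme gene 2595 kb after it, had a log2 difference of -0.36 ± 0.27 SE (limma adjusted p = 0.449). Neither flanking gene passed the test, while the rows between them differed by a log2 of 1.69 to 2.70 in the members.

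**Figure D5:**
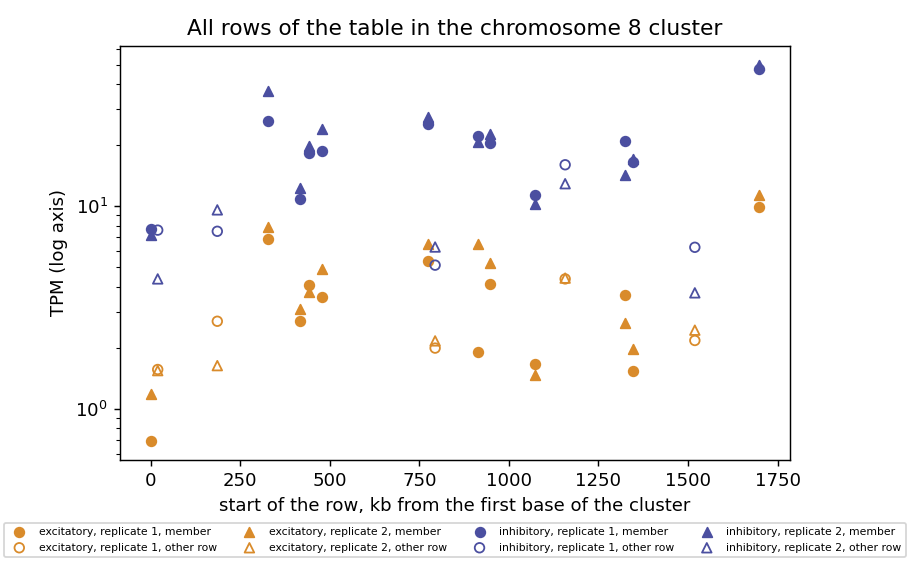
The 17 listed rows of the chromosome 8 group by distance of their start from its first base (kb, x axis) and level (TPM, log y axis), orange for excitatory and blue for inhibitory libraries, circles for replicate 1 and triangles for replicate 2, filled for the 12 members and open for the 5 other rows. In every row the inhibitory points stand above the excitatory ones, which the rule fixes for the 12 members. C130073E24Rik is highest at 47.7 and 49.9 TPM.

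Among the 17 small RNA genes, 6 were microRNA-type loci, and all 6 lay inside a host on its own strand. The libraries were not made for small RNA, so these values cover precursor or host RNA, not mature microRNA. Gm24627 and Gm22650 lie in Htr2c, a serotonin receptor gene on the X chromosome known for its intronic microRNAs. Gm24627 was at 2.69 and 1.84 against 15.8 and 19.9 TPM, Gm22650 at 2.71 and 8.59 against 36.8 and 28.2 TPM, and Htr2c at 21.6 and 16.7 against 85.8 and 72.1 TPM (log2 difference 1.99 ± 0.17 SE, limma adjusted p = 0.00305). The mature products that RefSeq (GRCm38.p6) gives for these 2 loci are shown to identify them, 5′ to 3′, with the seed, bases 2 to 8, in capitals.

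mmu-miR-1911-5p (Gm24627): uGAGUACAgccaugucuguuggg
mmu-miR-1911-3p (Gm24627): cACCAGGCauuguggucucugc
mmu-miR-3552 (Gm22650): aGGCUGCAggcccacuucccu

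The 3 seeds differ, and in the RefSeq table each belonged to 1 mature sequence. The other 4 microRNA-type loci lie within 17078 bases of an intron of Sfmbt2, a Polycomb group gene known for a large microRNA repeat cluster. Sfmbt2 was at 8.76 and 9.35 against 19.0 and 20.1 TPM (log2 difference 1.03 ± 0.17 SE, limma adjusted p = 0.0181). Gm23651 was at 2.04 and 1.29 against 10.2 and 6.39 TPM, Gm26060 at 2.11 and 1.11 against 9.99 and 6.96 TPM, Gm26426 at 1.48 and 0.856 against 10.4 and 5.05 TPM and Gm23571 at 1.27 and 0.346 against 10.2 and 9.04 TPM. Gm26060 and Gm26426 are identical over all 123 bases, and the other pairs over 74.7 to 85.0% of aligned bases, so how reads were divided among them is uncertain. The shared sequence of Gm26060 and Gm26426 is shown from GENCODE M21, in lower case.

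Gm26060 and Gm26426: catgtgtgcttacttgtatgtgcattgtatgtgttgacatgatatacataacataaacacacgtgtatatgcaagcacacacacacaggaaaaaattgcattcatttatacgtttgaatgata

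In all, 17 members had a near-identical copy elsewhere in the annotation, meaning a transcript at 95% identity or more over at least 80% of the member. Their values are uncertain, since reads may be divided among copies. Of the 39 pseudogenes, 7 had a protein-coding gene as copy, of which 5 were tested and 0 were called in either direction by limma. Gm10357, inside Adarb2, is 99.6% identical to Hmgn2, a nucleosome-binding protein gene, which was at 52.0 and 56.5 against 55.2 and 51.6 TPM (log2 difference -0.02, limma adjusted p = 0.931). Gm15483 matched the ribosomal protein gene Rps13 at 98.9%, and Rps13 was at 33.1 and 46.3 against 48.5 and 40.2 TPM (0.17, limma adjusted p = 0.629). Gm18078 matched Rpsa at 96.1%, another ribosomal gene, which was at 66.6 and 61.3 against 71.0 and 59.4 TPM (0.02, limma adjusted p = 0.933), while Gm18078 itself was at 3.63 and 0.618 against 31.1 and 23.7 TPM. Gm18078 is 1 of 3 pseudogenes between 134450 and 302347 bases from Rarb, a retinoic acid receptor gene that was at 17.3 and 14.6 against 91.2 and 82.3 TPM (2.38 ± 0.14 SE, limma adjusted p = 0.00156). Gm49873 and Gm49141 on chromosome 14 are both members and 99.8% identical to each other.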

How the data were processed

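RNA from sorted nuclei was depleted of ribosomal RNA, made into strand-keeping libraries and sequenced as read pairs, per the labels' protocols. The authors deposited 1 table of TPM values, whose columns each sum to 999833 to 999891. The submitters' processing notes name mm10, StringTie 2.2.1, HISAT2 2.2.1, fastp 0.23.4 and Bowtie2 2.3.5; the sources used here give neither their roles, nor the annotation, nor any use of strand. TPM keeps no depth, so depth is unknown and no counting interval can be given, and a row at 0 is only listed at 0.

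Groups and replicate numbers came from sample titles. Values were taken as log2(TPM + 1) for the 26055 genes that reached 1 TPM in 2 or more of the 4 libraries, and inhibitory minus excitatory was fitted with limma 3.58.1 in R 4.3.3 (variance trend, 2 residual degrees of freedom, two-sided, Benjamini-Hochberg). The fit was tested on simulated data. A fold change on this scale understates that of low genes, and an exact permutation of 2 against 2 cannot go below p = 0.333. Errors of fitted differences are standard errors.

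All 163 members matched GENCODE M21 (mm10), which gave positions, classes and partners. Copies were sought with blastn 2.17.0. Sequences came from RefSeq tables (GRCm38.p6, the mm10 build), in which 25 members had a promoter, and from GENCODE transcripts; none from chromosome 18 was used.

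The members and all lists were chosen with earlier results of these data known, and the gene lists were written from general knowledge. Members named were the 12 with the highest inhibitory mean, the 10 with the highest ratio, those at or within 5 kb of the start of a regional or GABAergic gene, the 3 on each side of each threshold and those with an excitatory partner; partners named were theirs and the 10 called partners with the largest change. Other members named, at shared hosts, noncoding genes, groups, microRNA loci and copies, were chosen after their values were seen. The values of 1 host gene are not reported here.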

Additional observations from a re-analysis of the deposited data

How the results depend on the processing

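TPM values give no depth, 2 libraries a class leave 2 residual degrees of freedom, and 15 members rest on excitatory values under 1 TPM. The rule's 163 members became 346 at a 2-fold and 64 at a 5-fold line, 394 at a floor of 1 TPM and 103 at 10 TPM, 375 on replicates 1 only, 412 on replicates 2 only, 143 after median ratio scaling, and 229 to 268 with 1 library left out. Genes called went from 1725 inhibitory and 1414 excitatory to 740 and 666 with no filter on low values, among 37740 genes tested. They were 1563 and 1795 after median ratio scaling and 1570 and 1661 after quantile normalization, so the inhibitory share of calls went from 55% to 46.5% and 48.6%. Partners called excitatory, 2 in the report, were 1 with no filter, 4 after median ratio scaling and 1 with no variance trend. Partners called inhibitory lay between 56.6% and 75.3% of those tested in the fits with all libraries. Leaving out 1 library gave 0 calls in both directions, for all genes and for partners, in each of the 4 fits, where the lone library of a class is assumed to vary like the pair. The partners' median log2 difference of 1.53 was 1.71 with a pseudocount of 0.1 and 1.41 to 1.58 with 1 library left out. Median ratio scaling moved the median of all genes from 0.07 to 0.00. Prdm2, never called, was at -0.07 after median ratio scaling, -0.05 after quantile normalization and -0.06 to 0.07 with 1 library left out (-0.01 without excitatory replicate 2). Among the 28 partners named by the rule, Gm8104, which overlaps Gm49873, lost its call with a pseudocount of 0.1 (limma adjusted p = 0.0701) and with no filter (0.0618). The causes were not tested. Replicate numbers are shared across classes, and whether they pair the libraries is not given. Same-numbered libraries deviated together with a correlation of 0.0957, which cannot tell whether they came from the same animals. With the replicate block, 2382 genes were called inhibitory and 1946 excitatory, 73 and 3 of the partners, and the partner median was 1.53.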
